A study of Mus musculus with 8 samples.

Results

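Peroxisomes are small organelles in which liver cells shorten very long and branched fatty acids, make ether lipid precursors and bile acids, and oxidise 2-hydroxy acids and D-amino acids. The 41 genes described here were a list of peroxisome assembly factors (peroxins) and of peroxisomal enzymes, carriers and membrane proteins, matched by gene symbol. The list was chosen with earlier results of these data known. All 41 were measured, each by 1 probe set that names that gene alone, among 19934 genes on Affymetrix Mouse Gene 1.0 ST arrays. The 4 NS-DADm liver samples came from male C57Bl/6 mice in which both nuclear receptor corepressors, NCOR and SMRT, carry a mutated deacetylase-activating domain. That domain binds the histone deacetylase HDAC3 and switches on its activity. The mutations are knock-in alleles, so no single cell type of the liver is singled out. Genotypes are as labelled, since transcripts of those 2 corepressors were not analysed here. The 4 WT samples came from male C57Bl/6 mice without these mutations. All 8 livers were from mice aged 10 to 12 weeks on normal chow in 12 h of light and 12 h of dark, taken at zeitgeber time 10, and 1 array was run per sample. The labels do not say that the samples of a group came from separate animals, so p-values measure the spread between these samples only, and the number of arrays limits the precision.

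Peroxins bring enzymes into the organelle. Pex5 and Pex7 bind the 2 kinds of targeting signal in the cytosol, other peroxins dock them at the membrane and recycle them, and a further set builds the membrane itself. Inside, beta-oxidation runs through an acyl-CoA oxidase, a bifunctional protein and a thiolase, while alpha-oxidation first removes 1 carbon from fatty acids, such as phytanic acid, whose methyl branch blocks beta-oxidation. In rodent liver many of these genes are known targets of the fatty acid receptor PPAR-alpha.

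Values are log2 intensities and differences are NS-DADm minus WT on that scale. Medians over genes lay between 7.56 and 7.64 on the 8 arrays, and arrays of different groups correlated at 0.992 to 0.996 across probe sets. Of 8 hepatocyte markers the 7 measured ones averaged between 13.57 and 13.97, far above those medians. Groups were compared with limma (two-sided), p-values were adjusted across the 19934 genes by Benjamini and Hochberg's method, and a gene was called at an adjusted p under 0.05. Over all genes 0.271% were called. In whole liver, fewer cells of a type and less RNA per cell cannot be told apart.

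Among the 41 genes, 1 was called, the alpha-oxidation enzyme gene Hacl1, which rose in NS-DADm livers. None of the others passed the test. At an unadjusted p under 0.05 there were 7 genes of the 41 (17.1%), against 9.33% of all genes, and all 7 were higher in NS-DADm livers, where 3.72% of all genes were higher and 5.6% lower at that level. Those 7 were Hacl1, Ehhadh, Acaa1b, Pex26, Acox2, Abcd2 and Hao2. The arrays of the groups did not overlap for 3 of the 41 (7.32%), against 5.63% of all genes. The differences of the 41 genes ran from -0.13 for Pxmp4 to 0.81 for Abcd2, with 25 above 0 and 16 below, and their median was 0.058, against -0.011 for all genes. That median was 0.015 to 0.078 with an array left out, the lowest without WT replicate 1, and it was 0.033 without NS-DADm replicate 3 and 0.039 without WT replicate 3. Of the 41, 35 differed by less than 0.2, as did 18479 of all 19934 genes. Because the list was chosen with earlier results of these data known, its shares and median are descriptions and not a test.

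**Figure D1:**
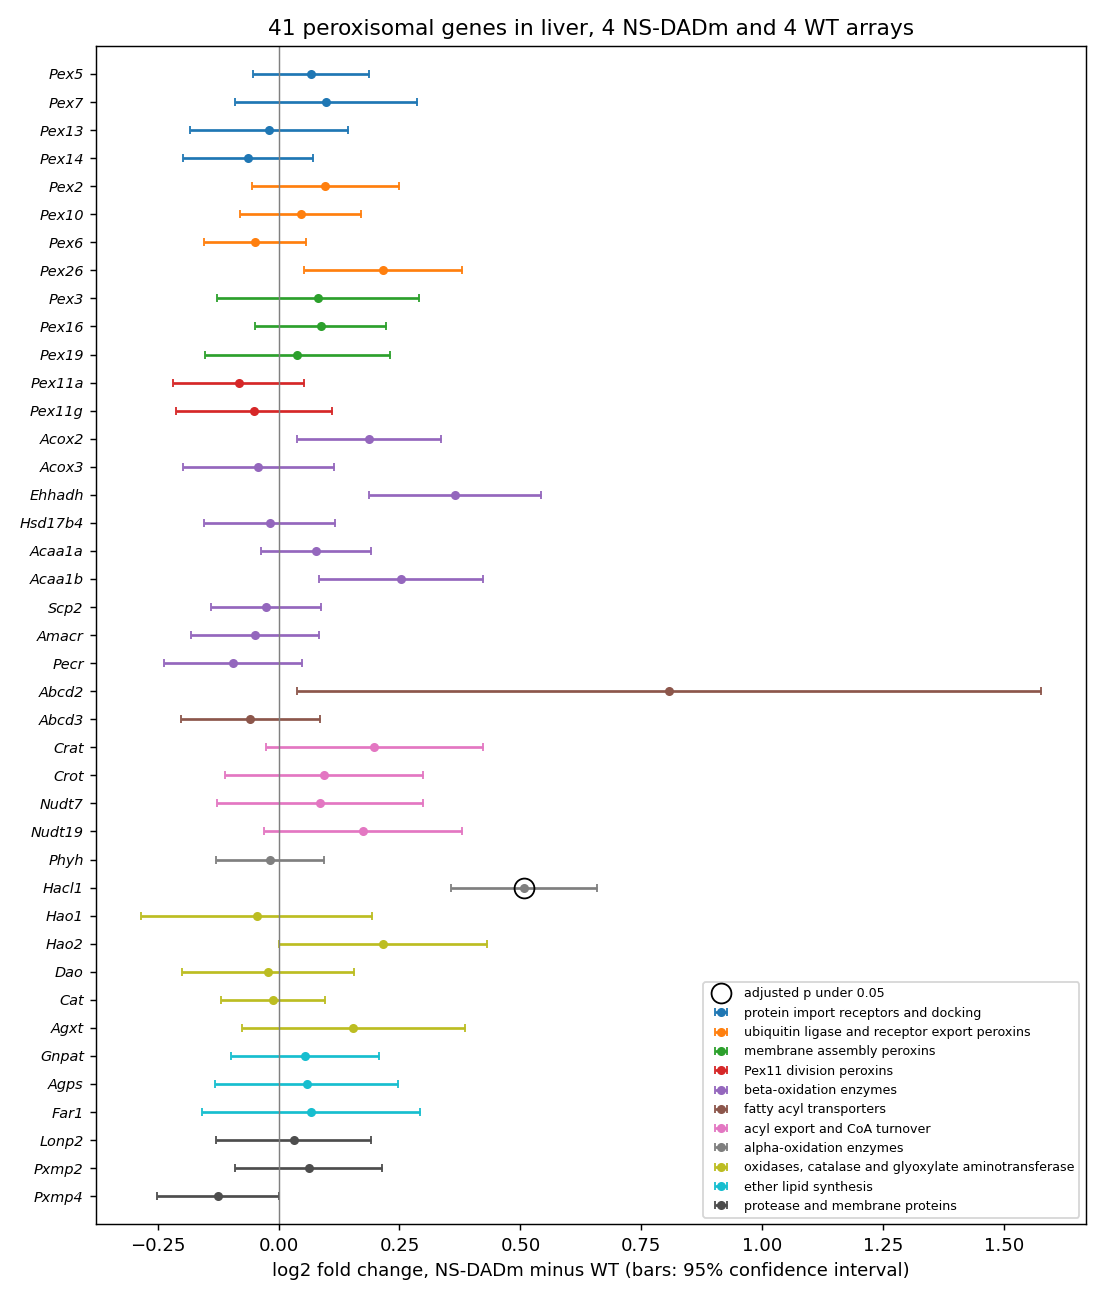
Log2 fold change (NS-DADm minus WT, x axis) of each of the 41 genes with its 95% confidence interval, coloured by role, for 4 NS-DADm and 4 WT arrays. The circled gene, Hacl1 at 0.51, is the 1 called over all genes, and Abcd2 at 0.81 has the widest interval.

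Hacl1 (Entrez Gene 56794) encodes 2-hydroxyacyl-CoA lyase, the thiamine-dependent enzyme that makes the carbon-carbon cut of alpha-oxidation. Its log2 intensity was 12.29, 12.16, 12.39 and 12.12 on NS-DADm arrays 1 to 4, against 11.70, 11.68, 11.74 and 11.81 on WT arrays 1 to 4. Every NS-DADm array lay above every WT array. The group means were 12.24 ± 0.12 in NS-DADm livers and 11.74 ± 0.057 in WT livers (SD, n = 4 each), a difference of 0.51 (SE 0.068, 95% confidence interval 0.36 to 0.66) or 1.42-fold, with a limma adjusted p of 0.0130. It ranked 25th by p-value among all genes. Without WT replicate 2 the adjusted p was 0.0830 at a difference of 0.49, and without WT replicate 3 it was 0.0534 at 0.51.

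Phyh, which encodes the phytanoyl-CoA hydroxylase acting before Hacl1 in the same pathway, had 13.26, 13.20, 13.33 and 13.23 in NS-DADm livers, against 13.31, 13.27, 13.25 and 13.25 in WT livers. The groups overlapped, and the difference was -0.018 (95% confidence interval -0.13 to 0.094, adjusted p = 0.978). The lyase and the hydroxylase of alpha-oxidation thus had intervals that did not overlap each other, although the difference between them was not tested.

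The 91 bases between the start of Hacl1 and that of its neighbour Btd are shown because both genes are read outward from them. Btd encodes biotinidase, which frees the vitamin biotin. In RefSeq on GRCm38.p6 they are chr14:31640966-31641056, given 5′ to 3′ on the minus strand, the strand of Hacl1, and capitals mark the 1 GC box (GGGCGG on either strand).
Hacl1 to Btd: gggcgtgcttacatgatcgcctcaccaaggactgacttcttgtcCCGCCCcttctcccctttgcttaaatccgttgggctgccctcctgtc

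Btd was at 9.82, 9.78, 9.69 and 9.99 in NS-DADm livers, against 9.37, 9.80, 9.79 and 9.84 in WT livers. The groups overlapped, and the difference was 0.12 (SE 0.11, adjusted p = 0.834). Of the pair that starts at this stretch, then, Hacl1 passed the test and Btd did not, and the difference between the genes was not tested.

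The genes listed here as beta-oxidation enzymes, which include the enoyl-CoA reductase Pecr, had no called member among 9. Their differences ran from -0.094 for Pecr to 0.36 for Ehhadh, with a median of -0.018, 4 above 0 and 5 below. At an unadjusted p under 0.05 there were 3, Ehhadh, Acaa1b and Acox2, each higher in NS-DADm livers.

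Ehhadh encodes the L-bifunctional protein, the hydratase and dehydrogenase of the straight-chain pathway and a well-known PPAR-alpha target. It had 12.31, 12.08, 12.30 and 12.22 in NS-DADm livers, against 11.74, 11.77, 11.88 and 12.06 in WT livers. The groups did not overlap, though NS-DADm array 2 was only just above WT array 4. The means were 12.23 ± 0.10 in NS-DADm livers and 11.86 ± 0.14 in WT livers (SD, n = 4 each), and the difference of 0.36 (SE 0.081, 95% confidence interval 0.19 to 0.54) had an adjusted p of 0.127. With each array left out in turn the difference was 0.32 to 0.43 and the adjusted p 0.0503 (without WT replicate 4) to 0.352 (without WT replicate 2), so it was not called in any of these fits. Hsd17b4, which encodes the D-bifunctional protein used for branched chains and bile acid precursors, had 11.97 ± 0.099 in NS-DADm livers and 11.99 ± 0.047 in WT livers, a difference of -0.018 (95% confidence interval -0.15 to 0.12, adjusted p = 0.984).

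The thiolases Acaa1a and Acaa1b, which carry out the last step for straight chains, are close paralogs, so signal shared between their probes makes the share of each copy uncertain. Acaa1b had 11.72, 11.57, 11.82 and 11.90 in NS-DADm livers, against 11.61, 11.50, 11.44 and 11.44 in WT livers. Only NS-DADm array 2 lay within the WT range, below WT array 1. The difference was 0.25 (SE 0.076, 95% confidence interval 0.084 to 0.42, adjusted p = 0.292). Acaa1a had 9.81, 9.82, 9.89 and 9.91 in NS-DADm livers, against 9.82, 9.76, 9.74 and 9.81 in WT livers, with NS-DADm array 1 inside the WT range. Its difference was 0.077 (SE 0.052, adjusted p = 0.744).

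The 150 bases before the annotated starts of Ehhadh and Acaa1b are shown as the beta-oxidation genes with the largest differences. In RefSeq on GRCm38.p6 they are chr16:21787835-21787984 and chr9:119157094-119157243, both on the minus strand and given 5′ to 3′. Capitals mark GC boxes (GGGCGG) and CCAAT boxes (CCAAT), either strand, with no overlap between them.
Ehhadh: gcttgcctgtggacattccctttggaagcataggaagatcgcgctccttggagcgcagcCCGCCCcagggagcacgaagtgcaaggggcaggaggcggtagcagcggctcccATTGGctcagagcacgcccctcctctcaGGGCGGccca
Acaa1b: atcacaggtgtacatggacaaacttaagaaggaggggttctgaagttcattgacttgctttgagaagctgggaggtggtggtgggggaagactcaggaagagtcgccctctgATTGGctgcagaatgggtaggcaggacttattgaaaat

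Ehhadh held 2 GC boxes and 1 CCAAT box in this stretch and Acaa1b 1 CCAAT box and no GC box. Windows of 250 bases before the start were found for 34 of the 41 genes. A gene was counted if any of its windows held the box or half-site, while the share of all windows counts each window singly. The shares below are thus of unlike units, which favours the 34 genes where a gene has several windows. A GC box stood in 22 of the 34 (64.7%), against 32.7% of all 32851 windows in the table, and a CCAAT box in 15 (44.1%), against 33.8%. The nuclear receptor half-site AGGTCA, either strand, stood in 4 of the 34 (11.8%), namely Cat, Dao, Pex11g and Scp2, against 14% of all windows. A pair of such half-sites 1 base apart, the arrangement PPAR-alpha is known to bind, was in none of the 34, against 0.0335% of all windows, and with up to 2 mismatches in Cat alone, against 3.24% of all windows. These windows are short, and the letters found or not found in them say nothing of what binds.

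Acox2 encodes the oxidase for bile acid intermediates and branched chains. It had 11.65, 11.41, 11.58 and 11.67 in NS-DADm livers, against 11.41, 11.30, 11.45 and 11.41 in WT livers, and only NS-DADm array 2 overlapped with WT. The difference was 0.19 (SE 0.068, adjusted p = 0.397). The other oxidase, Acox3, was at -0.042, the branched-chain thiolase and sterol carrier Scp2 at -0.025, the racemase Amacr at -0.049 and the enoyl-CoA reductase Pecr at -0.094, with adjusted p of 0.758 to 0.967.

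**Figure D2:**
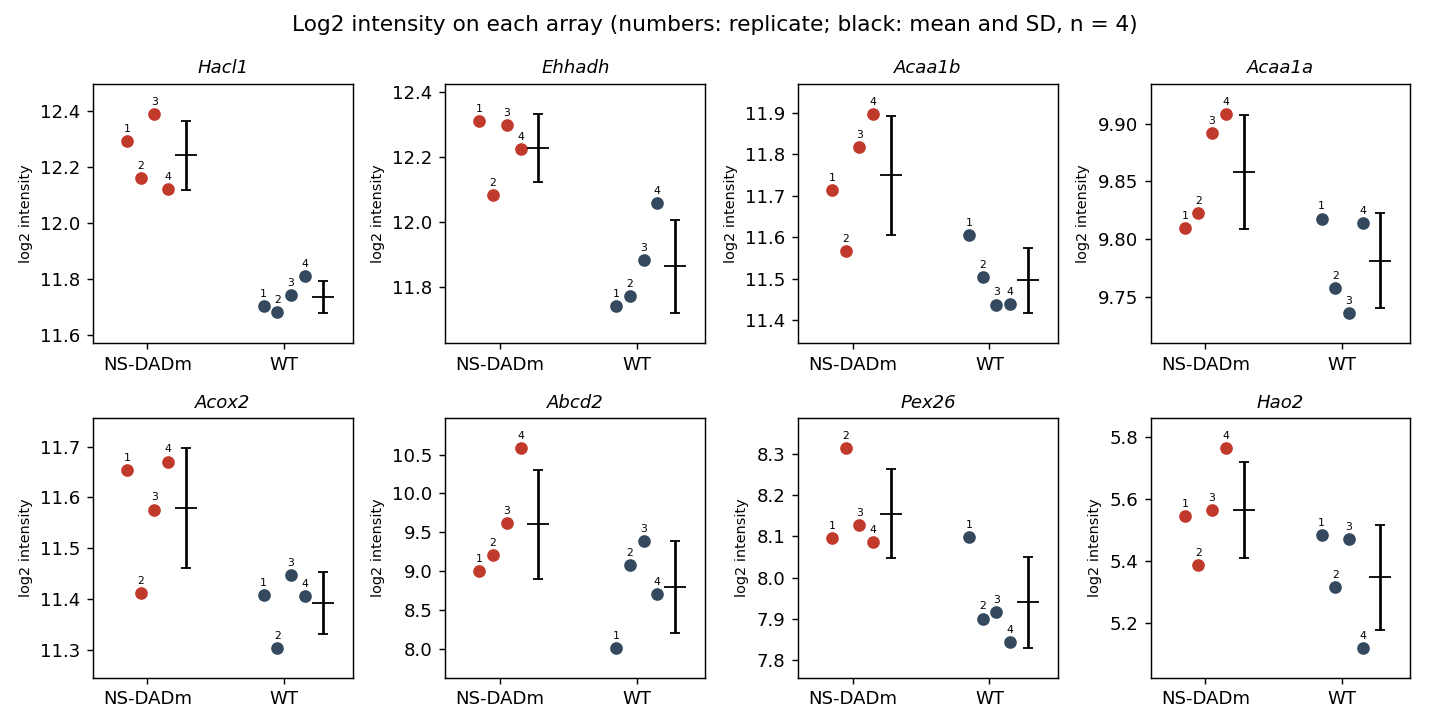
Log2 intensity (y axis, a separate scale per gene) of 8 genes on each NS-DADm array and each WT array, numbered by replicate, with group mean and SD (n = 4). The arrays of the groups are apart for Hacl1 and Ehhadh and overlap for the other 6 genes.

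Fatty acyl-CoAs enter peroxisomes through ABC half-transporters. Abcd2, which carries very long and polyunsaturated chains, had 9.01, 9.20, 9.62 and 10.58 in NS-DADm livers, against 8.01, 9.08, 9.39 and 8.71 in WT livers. Its groups overlapped widely, and its SDs of 0.70 in NS-DADm livers and 0.59 in WT livers were the highest of the 41 genes. The difference of 0.81 (SE 0.35, 95% confidence interval 0.038 to 1.58) had an adjusted p of 0.502 and was 0.48 without NS-DADm replicate 4 and 0.55 without WT replicate 1. Abcd3, a transporter of branched and long chains and an abundant protein of the membrane, had 12.40 ± 0.12 in NS-DADm livers and 12.46 ± 0.027 in WT livers, a difference of -0.058 (adjusted p = 0.903).

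Products leave as carnitine esters or free acids, and spare CoA is broken down in the organelle. The 4 genes of these steps had differences from 0.086 to 0.20, all above 0 and none called. Crat, the carnitine acetyltransferase, had 10.16 ± 0.19 in NS-DADm livers and 9.97 ± 0.15 in WT livers (difference 0.20, adjusted p = 0.601), and its difference was 0.11 without NS-DADm replicate 4. Crot, the octanoyltransferase, was at 0.094 and the CoA diphosphatases Nudt7 and Nudt19 at 0.086 and 0.17, with adjusted p of 0.616 to 0.907. With an array left out Crot ranged from 0.036 to 0.16, Nudt7 from 0.032 to 0.18 and Nudt19 from 0.11 to 0.26.

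Among the oxidases, catalase and the glyoxylate aminotransferase no gene of 5 was called. Cat, which destroys the hydrogen peroxide that the oxidases make, had 13.76, 13.75, 13.79 and 13.77 in NS-DADm livers, against 13.75, 13.84, 13.78 and 13.76 in WT livers. The difference of -0.012 had a 95% confidence interval of -0.12 to 0.095 (adjusted p = 0.988). Hao2, a 2-hydroxy acid oxidase, had 5.54, 5.39, 5.56 and 5.76 in NS-DADm livers, against 5.48, 5.32, 5.47 and 5.12 in WT livers, a difference of 0.22 (SE 0.098, adjusted p = 0.533) that was 0.14 without WT replicate 4. The groups overlapped, and both lay well under the array medians, as did Dao, the D-amino acid oxidase, at 6.00 ± 0.038 in NS-DADm livers and 6.02 ± 0.17 in WT livers. No detection call was given, so it is not known whether these signals exceed background. Hao1, the glycolate oxidase, had 11.38 ± 0.23 in NS-DADm livers and 11.42 ± 0.13 in WT livers (difference -0.045, adjusted p = 0.974). Agxt, which turns the glyoxylate made by Hao1 into glycine, had 11.18, 11.23, 11.31 and 11.72 in NS-DADm livers, against 11.23, 11.24, 11.20 and 11.16 in WT livers. The difference of 0.15 (adjusted p = 0.748) was 0.034 without NS-DADm replicate 4.

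The 13 peroxins had no called member, with a lowest adjusted p of 0.365 and 1 gene, Pex26, at an unadjusted p under 0.05. Their differences ran from -0.082 to 0.22 with a median of 0.045, and their 95% confidence intervals together spanned -0.22 to 0.38. The import receptors Pex5 and Pex7 were at 0.068 and 0.098, and the docking proteins Pex13 and Pex14 at -0.019 and -0.063.

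Pex26, the membrane anchor of the ATPases that pull the receptor back out, had 8.10, 8.31, 8.13 and 8.09 in NS-DADm livers, against 8.10, 7.90, 7.92 and 7.84 in WT livers. Apart from WT array 1, every NS-DADm array was above WT, and the difference was 0.22 (SE 0.074, adjusted p = 0.365). Pex6, the ATPase it anchors, had 9.72, 9.72, 9.66 and 9.65 in NS-DADm livers, against 9.72, 9.74, 9.75 and 9.73 in WT livers. Those groups did not overlap, although NS-DADm arrays 1 and 2 and WT array 1 round to the same value, and the difference was only -0.049 (SE 0.048, 95% confidence interval -0.15 to 0.057, adjusted p = 0.880). The RING-finger ubiquitin ligase peroxins Pex2 and Pex10 were at 0.096 and 0.045.

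The membrane assembly factors Pex3, Pex16 and Pex19 were at 0.082, 0.088 and 0.039. Pex11a, a division factor known as a PPAR-alpha target, had 11.67 ± 0.089 in NS-DADm livers and 11.75 ± 0.062 in WT livers, a difference of -0.082 (95% confidence interval -0.22 to 0.053, adjusted p = 0.792), and its relative Pex11g was at -0.051.

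Of the remaining genes, those of ether lipid synthesis had differences of 0.055 for Gnpat, 0.058 for Agps and 0.068 for Far1, with adjusted p of 0.925 to 0.947. The peroxisomal protease gene Lonp2 was at 0.031 and the membrane channel gene Pxmp2 at 0.062. Pxmp4, a membrane protein gene, had 11.36 ± 0.060 in NS-DADm livers and 11.49 ± 0.069 in WT livers, a difference of -0.13 (SE 0.057, adjusted p = 0.536).

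Peroxins were set against the 16 genes of beta-oxidation, alpha-oxidation and the oxidases by taking each gene's deviation from its own WT mean and averaging over genes on each array. The peroxins averaged 0.065, 0.0093, 0.073 and -0.0031 on NS-DADm arrays 1 to 4, against -0.030, 0.060, -0.053 and 0.023 on WT arrays 1 to 4. The groups overlapped. The 16 enzymes averaged 0.094, 0.025, 0.16 and 0.083 on NS-DADm arrays, against 0.022, -0.0024, -0.011 and -0.0083 on WT arrays. All 4 NS-DADm values were above the WT values, though NS-DADm array 2 was close to WT array 1. Without Hacl1 the other enzymes averaged 0.063, -0.0012, 0.12 and 0.063 on NS-DADm arrays, against 0.026, 0.00093, -0.013 and -0.014 on WT arrays, and the groups overlapped.

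The enzyme average minus the peroxin average was 0.029, 0.016, 0.083 and 0.087 on NS-DADm arrays, against 0.052, -0.062, 0.042 and -0.032 on WT arrays. The groups overlapped on that measure as well. By the median over genes the order was the other way, with the enzymes at -0.015 and the peroxins at 0.045. With an array left out the enzyme median was -0.016 to 0.026 and the peroxin median 0.0090 (without WT replicate 1) to 0.078 (without WT replicate 2). These averages are given as descriptions without a test.

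**Figure D3:**
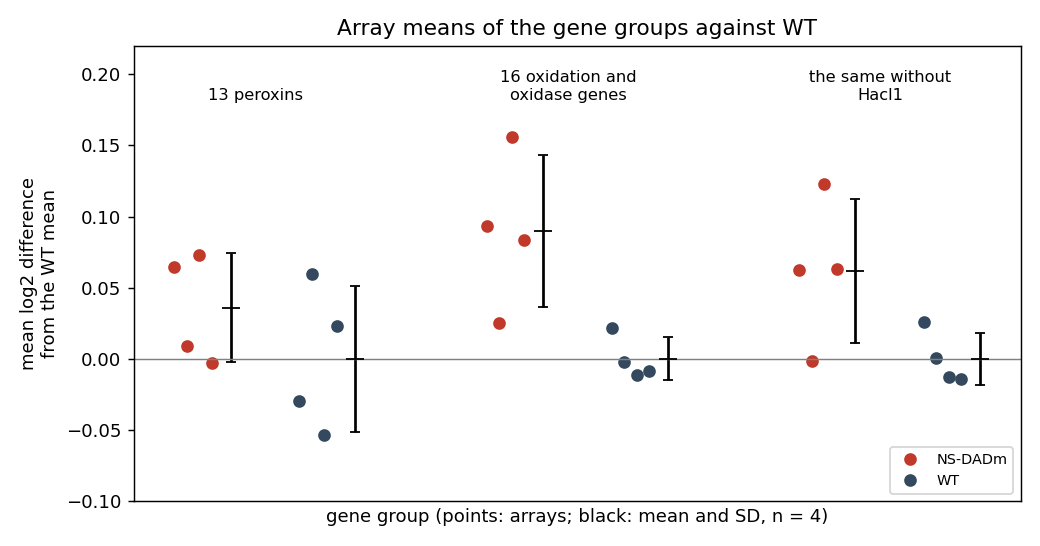
Mean log2 difference from the WT mean (y axis) on each array for 13 peroxins, 16 oxidation and oxidase genes, and the same enzymes without Hacl1, NS-DADm left of WT, with group mean and SD (n = 4). The NS-DADm arrays are above the WT arrays for the 16 enzymes, at 0.025 to 0.16, and overlap with WT in the other panels.

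Arrays of both groups differed among themselves across these genes. NS-DADm array 3 was the highest of its group for 20 of the 41 genes and NS-DADm array 2 the lowest for 19, while WT array 2 was the highest of its group for 16 and WT array 3 the lowest for 17. NS-DADm array 4 and WT array 1 were each at one end of their group for 25 genes, little more than NS-DADm arrays 2 and 3 at 24 each. The same counts over all genes were not made. NS-DADm array 4 held the highest NS-DADm values of Agxt, Abcd2, Hao2 and Crat and the lowest of Hao1 and Nudt7. The median SD over the 41 genes was 0.10 in NS-DADm livers and 0.079 in WT livers, against 0.080 in NS-DADm livers and 0.11 in WT livers over all genes.

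**Figure D4:**
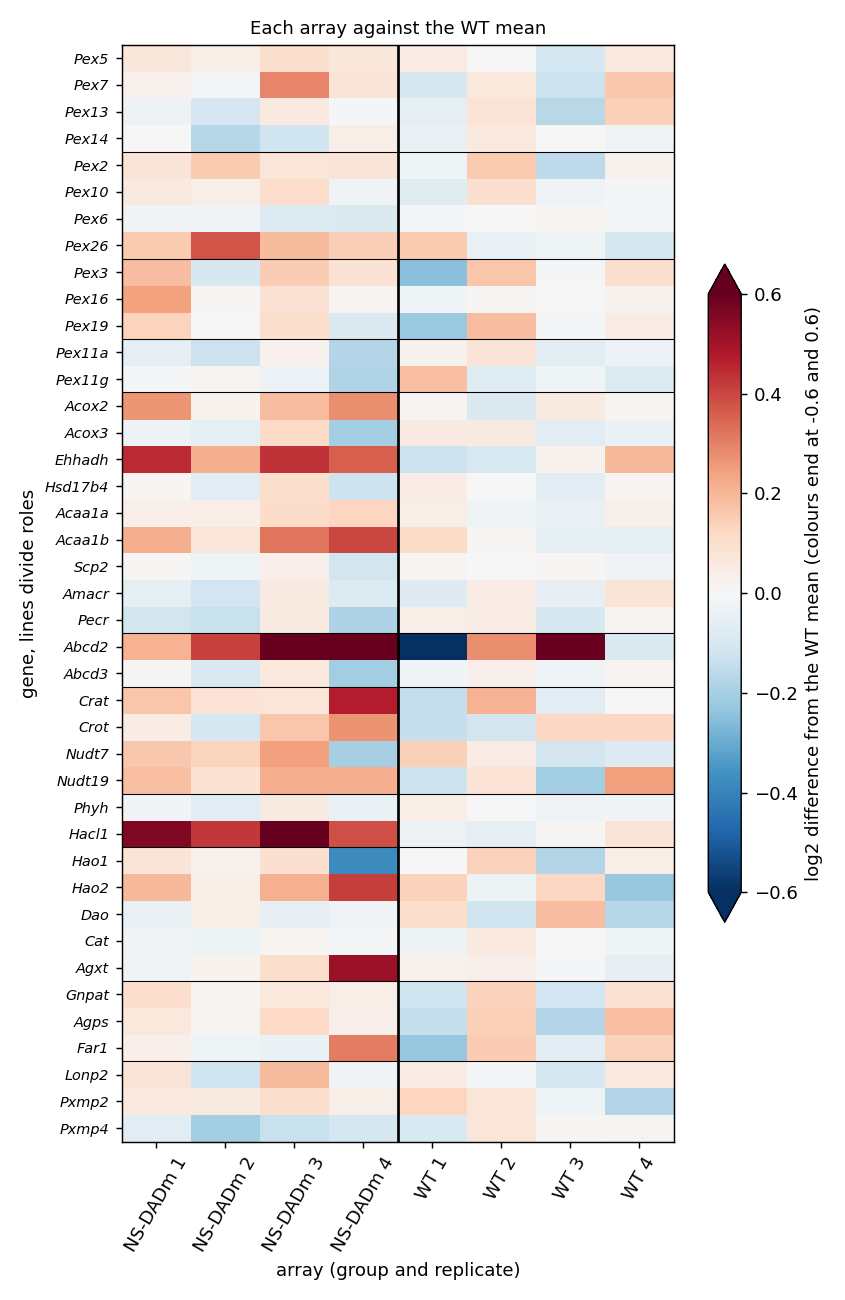
Log2 difference of each array from the WT mean of the same gene, for 41 genes (rows, grouped by role) and 8 arrays (columns, NS-DADm left of WT). Hacl1 and Ehhadh are above the WT mean on all 4 NS-DADm arrays, as are other genes, among them Acox2, Acaa1b, Pex26 and Hao2. Abcd2 and Agxt are highest on NS-DADm array 4.

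A second list held 56 other genes of peroxisomal metabolism, division and regulation, of which 47 were measured and the other 9 were not analysed here. Of the 47, limma called 1 higher and 0 lower, against 0.271% of all genes called in either direction. At an unadjusted p under 0.05 there were 3 higher and 8 lower, against 3.72% and 5.6% of all genes. The median difference of the 47 was 0.00098, against -0.011 for all genes. The called gene was Acnat2, an acyltransferase that joins fatty acids to amino acids, with 9.83, 9.14, 9.01 and 8.69 in NS-DADm livers, against 6.93, 6.65, 7.44 and 7.35 in WT livers. Its arrays were far apart, at a difference of 2.07 (SE 0.23, adjusted p = 0.00493), while its relative Acnat1 was at 0.034 (adjusted p = 0.977); how far probes of such relatives share signal was not tested.

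Of 6 transcriptional regulators in that list 5 were below 0 and none was called. An unadjusted p under 0.05 was found for 3, all lower in NS-DADm livers, where 5.6% of all genes were lower. Ppara, named after its values were seen, encodes PPAR-alpha and had 11.52, 11.58, 11.67 and 11.64 in NS-DADm livers, against 11.78, 11.92, 11.74 and 11.83 in WT livers. The groups did not overlap, and the difference was -0.22 (SE 0.059, adjusted p = 0.238). Ppargc1b and Esrra were the other regulators at an unadjusted p under 0.05. Also named after their values were seen, they were at -0.42 and -0.15 (limma adjusted p = 0.341 and 0.515). Ppargc1b had 8.30, 8.55, 8.86 and 9.07 in NS-DADm livers, against 9.11, 9.06, 9.16 and 9.13 in WT livers. NS-DADm array 4 thus lay within its WT range, and the groups of Esrra overlapped as well. Ephx2, also named after its values were seen, encodes an epoxide hydrolase of cytosol and peroxisomes and was lowest among the enzymes of the list, at 12.28 ± 0.040 in NS-DADm livers and 12.55 ± 0.061 in WT livers (difference -0.27, adjusted p = 0.0846).

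Markers of other liver cells were read on the same arrays. All 8 sinusoidal endothelial markers were below 0, with a median of -0.31 and none called. Of these, 5 were at an unadjusted p under 0.05, where 5.6% of all genes were lower. The mean of the 8 ranged from 9.03 to 9.69 on NS-DADm arrays and from 9.54 to 9.72 on WT arrays. Of 8 Kupffer cell and macrophage markers 7 were above 0, with a median of 0.10, none called, and means of 8.55 to 9.60 on NS-DADm arrays and 8.68 to 9.24 on WT arrays. All 8 neutrophil markers were above 0, with a median of 0.11. Of them, 2 were at an unadjusted p under 0.05, where 3.72% of all genes were higher. The neutrophil means were 6.37 to 6.56 on NS-DADm arrays and 6.25 to 6.42 on WT arrays. Each of these 8 averaged under the array medians, at 5.39 to 7.37, and whether their signals exceed background is not known. Of 6 erythroid markers 2 were measured, Alas2 at -0.51 (adjusted p = 0.0707), whose groups did not overlap, and Slc4a1 at 0.10. Stellate, cholangiocyte and lymphocyte markers had medians of -0.052, 0.0053 and 0.046. The measured lymphocyte markers averaged 5.18 to 7.47 and the cholangiocyte markers 5.05 to 8.07. All of these but Sox9 averaged under the array medians, so whether their signals exceed background is not known either. Hepatocyte markers had a median of 0.0064, with 5 above 0 and 2 below. The groups were apart for 2 of them, in opposite directions, against 5.63% of all genes. Tat, a tyrosine-degrading enzyme gene, was at -0.20 and Hpx at 0.10 (limma adjusted p = 0.427 and 0.592). None of these markers was called. The part of these shifts in the Hacl1 result was not tested.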

How the data were processed

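Liver RNA of 4 NS-DADm and 4 WT samples was read on 1 array each. The authors' deposited table held log2 intensities of 28270 probe sets. The log2 scale was read from the values, and RMA and Partek are the tools named in the submitters' processing notes, with versions and order not given in the sources used here. Probe sets were named from the platform annotation, with symbols updated by Entrez identifier through RefSeq genes (GRCm38.p6): 21780 named 1 gene, 1617 several and 4873 none. Each gene was represented by its highest-mean single-gene probe set, giving 19934 genes. No filter was applied. Groups came from the sample titles.

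limma 3.58.1 (R 4.3.3, lmFit and eBayes) compared the groups over all genes. The step was also run on simulated data, with outcomes not given here. Those data drew each gene independently, without shifts shared across an array. Fold changes are 2 to the power of a log2 difference. The members and lists were chosen with earlier results of these data known. All 41 genes are accounted for. Values per array are given for genes called, with groups that do not overlap or with a difference of at least 0.2, and for some others. In the second list, genes called or with a difference of at least 0.5 are named. Alternatives were other probe set choices, a filter on low values, quantile normalization, median subtraction, a variance trend with robust fitting, weights for arrays, a block for the replicate number, and each array left out in turn. Start-site windows came from a RefSeq promoter table (GRCm38.p6), which gave 34 of the 41 genes. No batch or scan date was given in the sources used here. Figures used Python 3.11.15, pandas 2.3.3 and matplotlib 3.10.9.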

Additional observations from a re-analysis of the deposited data

Results flagged for a closer look

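In each group of 4 arrays the highest and lowest values of each of the 41 genes were set against the rest of their group with Dixon's test at the 95% level. Of 82 gene and group pairs 2 stood apart, and chance alone would give about 1 in 20. Pex2 on NS-DADm replicate 2 was at 9.04, against 8.96 to 8.97 on the other NS-DADm arrays. Hao1 on NS-DADm replicate 4 was at 11.04, against 11.45 to 11.52 on the other NS-DADm arrays, and without that array the difference of Hao1 was 0.067 in place of -0.045.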

How the results depend on the processing

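Hacl1 kept its direction under all 8 processing alternatives and with each of the 8 arrays left out, at 0.46 to 0.55. Of the processing alternatives, only quantile normalization, median subtraction and array weights could change that difference. The others left it at 0.51, since each of the 41 genes has 1 probe set and the replicate block is balanced. The adjusted p of Hacl1 was 0.00490 to 0.0271 under the processing alternatives. The number of genes called higher among the 41 was 1 under each processing alternative and 0 to 1 with an array left out (0 without WT replicate 2 or 3). The number called lower was 0 throughout. The enzyme median was -0.016 to 0.026 with an array left out, the highest without NS-DADm replicate 4. The peroxin median was 0.0090 to 0.078 and the median of the 41 genes 0.015 to 0.078, both lowest without WT replicate 1. Over all genes the calls numbered 54 and ran from 45 (array medians subtracted) to 109 (array weights), and from 13 (without WT replicate 2) to 126 (without NS-DADm replicate 4). The replicate numbers gave deviations that correlated at 0.15, 0.048, -0.10 and 0.25 between same-numbered arrays, and 2 of the 4 NS-DADm arrays correlated best with their own number, so the numbers were not taken as pairs. With the replicate block 105 genes were called and 1 of the 41, Hacl1 (adjusted p = 0.0271).

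Of the 41 genes 28 kept their sign throughout and 13, none of them called, did not. Among the processing alternatives, only quantile normalization, median subtraction and array weights could change a sign. Array weights turned Pex13 to 0.0100, Hsd17b4 to 0.0034 and Hao1 to 0.033. With arrays left out, differences ran from -0.076 to 0.028 for Pex13, -0.0012 to 0.14 for Pex3, -0.034 to 0.10 for Pex19, -0.078 to 0.0090 for Pex11g, -0.095 to 0.011 for Acox3, -0.059 to 0.018 for Hsd17b4, -0.044 to 0.0027 for Scp2, -0.10 to 0.067 for Hao1, -0.078 to 0.041 for Dao, -0.022 to 0.0072 for Cat, -0.00090 to 0.12 for Agps, -0.012 to 0.12 for Far1 and -0.021 to 0.081 for Lonp2. The cause was not tested. Signal over background was not given, which limits Hao2 and Dao most.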
